A study of Fragaria vesca with 24 samples.

Results

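The genotype by cold interaction in leaves of woodland strawberry, Fragaria vesca, was the subject of these measurements: for each gene, the change in transcript accumulation of ‘NCGR1363’ leaves over 42 d in the cold, less the change in ‘Alta’ leaves over the same treatment. ‘NCGR1363’ is a genotype susceptible to freezing and ‘Alta’ is a freezing-tolerant one. The interaction is given on the log2 scale, so that a value above 0 means a stronger rise, or a weaker fall, in ‘NCGR1363’ than in ‘Alta’. The members were all genes expressed in leaves, whatever their function or position, namely those with at least 0.5 CPM (read counts scaled to a common library size) in at least 2 of the 12 leaf libraries, and they numbered 19215 of the 34006 genes in the table. The leaves fell into 4 groups of 3 biological replicates: ‘NCGR1363’ held at 2 °C for 42 d, untreated ‘NCGR1363’ at 0 h, ‘Alta’ held at 2 °C for 42 d and untreated ‘Alta’ at 0 h. By the study's methods, plants were raised in a glasshouse, and the cold treatment matched its acclimation conditions, which had a shorter photoperiod. Cold, shorter days and 42 d of added age therefore went together, and what is called a cold response cannot be split between them. The 12 other libraries of the 24 came from crowns of the same genotypes and treatments. The plants were grown from runners, and the titles give 1 name for each genotype, although another label of the ‘NCGR1363’ samples carries a number that increases from sample to sample. A difference between genotypes is thus a difference between these 2 sets of clonal plants, and the p-values measure the spread between these samples.

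Plants of cold climates gain freezing tolerance during weeks at low temperature above freezing, a process called cold acclimation. In leaves it involves transcription factors of the cold and abscisic acid pathways, protective proteins such as dehydrins, altered sugar and lipid metabolism, and an adjustment of photosynthesis as carbon fixation and growth slow. Cold also stabilises base pairing in RNA and slows protein synthesis, and RNA helicases, ribosomal proteins and translation factors are among the gene products that plants need to keep translation going in the cold. Because whole leaves were extracted, a lower value can mean fewer cells of a type or less RNA per cell, and these cannot be told apart.

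The leaf libraries held between 12818719 and 18487934 counts each. The summed level of the 36 genes described as chloroplastic was 2760 to 4680 CPM in every leaf library and 514 to 763 CPM in 11 of the 12 crown libraries, so the leaf libraries carried their defining transcripts, and the summed pair of stomatal lineage genes (2.02 to 5.31 CPM) was likewise above its level in those crown libraries. The remaining crown library, labelled ‘Alta’ crown 42 d replicate 3, had 4420 CPM for the chloroplast genes and correlated with untreated ‘Alta’ leaves at r of 0.975 to 0.986 (across genes), so every comparison with crowns is given with and without it. Within the leaf groups, replicates correlated at 0.968 to 0.983 in cold-treated ‘Alta’, at 0.964 to 0.989 in untreated ‘NCGR1363’ and at 0.976 to 0.987 in untreated ‘Alta’, but at 0.897 to 0.980 in cold-treated ‘NCGR1363’. Replicate 2 of that group stood apart. On the first principal component, which held 46.4% of the variance, the cold-treated ‘NCGR1363’ libraries lay at 7.92, 67.4 and 30.6 for replicates 1, 2 and 3, between the cold-treated ‘Alta’ libraries at 105 to 127 and all untreated libraries at −90.3 to −62.3. What set replicate 2 apart was not tested, and counts without it are given below.

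**Figure D1:**
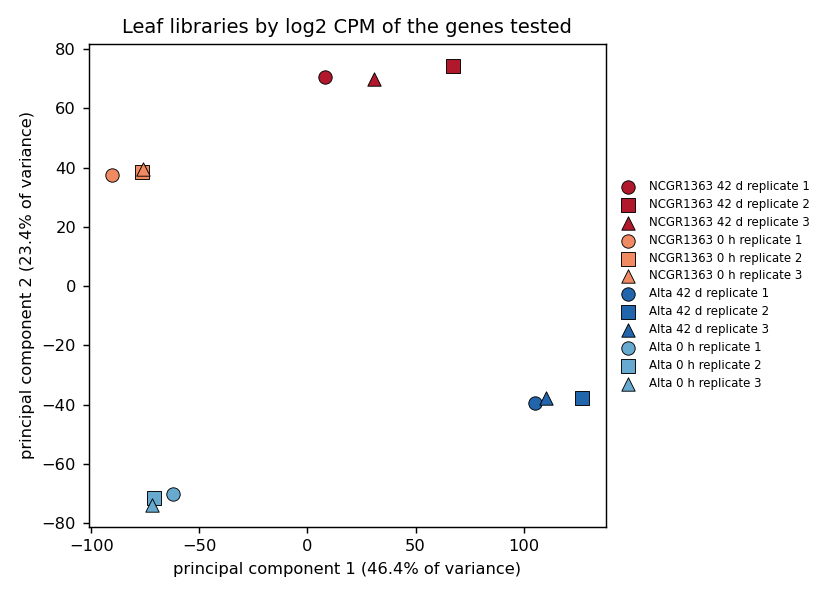
Principal components of the 12 leaf libraries, from log2 CPM of the 19215 genes tested; each point is a library and the axes give the share of variance (46.4% for the first component, 23.4% for the second). The first component ran from untreated leaves to cold-treated ‘Alta’ leaves, with the 3 cold-treated ‘NCGR1363’ libraries in between and spread from 7.92 to 67.4; the second separated the genotypes.

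After 42 d in the cold the leaves of the genotypes had responded differently in 3398 of the 19215 genes (edgeR quasi-likelihood test of the interaction, false discovery rate (FDR) of at most 0.05), or 17.7% of the genes tested. Of these, 2039 (10.6% of the genes tested) had a higher and 1359 (7.07%) a lower response in ‘NCGR1363’ than in ‘Alta’. The called interactions had a median size of 1.06 on the log2 scale, with 10% below 0.617 and 10% above 2.59, and 1875 were at least 2-fold. Over all genes tested the median interaction was 0.075 with TMM scaling and 0.00622 with DESeq2 size factors, under which 1748 genes were higher and 1553 lower, a more even split. Without cold-treated ‘NCGR1363’ replicate 2 the number called was 5594, with 2994 higher and 2600 lower, and 3302 of the 3398 genes were among them. At an unadjusted p under 0.05 there were 6329 genes.

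The response to cold itself was called in fewer genes of ‘NCGR1363’ leaves than of ‘Alta’ leaves: 7672 genes (39.9%) changed in ‘NCGR1363’ and 9533 (49.6%) in ‘Alta’, in the same 12-library fit. Rises were called in 21.4% of the genes tested in ‘NCGR1363’ and in 24.4% in ‘Alta’, and falls in 18.6% in ‘NCGR1363’ and 25.2% in ‘Alta’. At 42 d the genotypes differed in 5243 genes (27.3%), against 2616 genes (13.6%) at 0 h, when all 12 libraries shared 1 estimate of the spread. In fits of the 6 libraries of each time alone the order was the other way, with 2828 genes at 42 d and 3426 at 0 h. Among the 3398 interaction genes, the response was larger in ‘Alta’ in 2144 (63.1%, beside 58.5% of all genes tested), and the genotypes lay farther apart at 42 d than at 0 h in 2304 (67.8%, beside 59.8% of all genes tested). These shares were 62.0% and 73.4% without cold-treated ‘NCGR1363’ replicate 2.

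**Figure D2:**
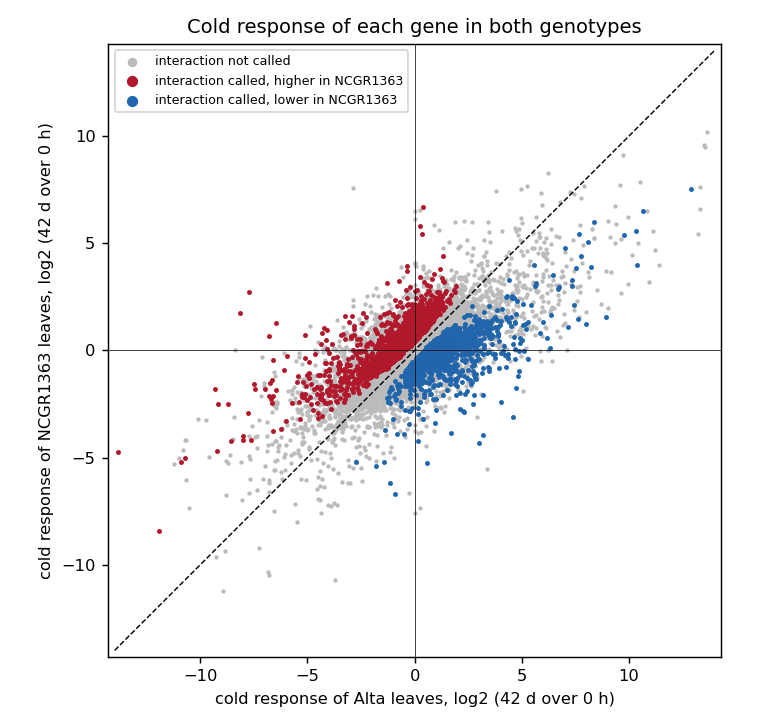
Cold response (log2 of 42 d over 0 h) of each gene tested in ‘NCGR1363’ leaves, on the vertical axis, against that in ‘Alta’ leaves, on the horizontal axis. Red points are the 2039 genes with a higher and blue points the 1359 genes with a lower response in ‘NCGR1363’ (FDR at most 0.05); the dashed line marks equal responses, and grey points are the other genes tested.

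Sorted by the calls within each genotype, the interaction genes were of several kinds. The cold response was called in ‘NCGR1363’ alone in 805 genes (23.7%), of which 571 rose and 234 fell, and in ‘Alta’ alone in 1405 genes (41.3%), of which 738 rose and 667 fell. A further 436 rose in both genotypes and 387 fell in both, by unequal amounts. The direction was opposite in 299 genes: 198 rose in ‘NCGR1363’ and fell in ‘Alta’, and 101 fell in ‘NCGR1363’ and rose in ‘Alta’. In 66 genes neither response was called. Without cold-treated ‘NCGR1363’ replicate 2, 740 genes rose and 560 fell in ‘NCGR1363’ alone, and 1306 rose and 1099 fell in ‘Alta’ alone. In that refit 267 genes rose in ‘NCGR1363’ and fell in ‘Alta’, and 266 did the reverse. With DESeq2 size factors these were 157 and 123, so the uneven split of opposite directions did not hold across settings. Opposite directions were not counted over all genes. A response called in 1 genotype only is a count of calls, and the difference itself is what the interaction tested. Over all genes, too, more cold responses were called in ‘Alta’ (49.6%) than in ‘NCGR1363’ (39.9%).

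**Figure D3:**
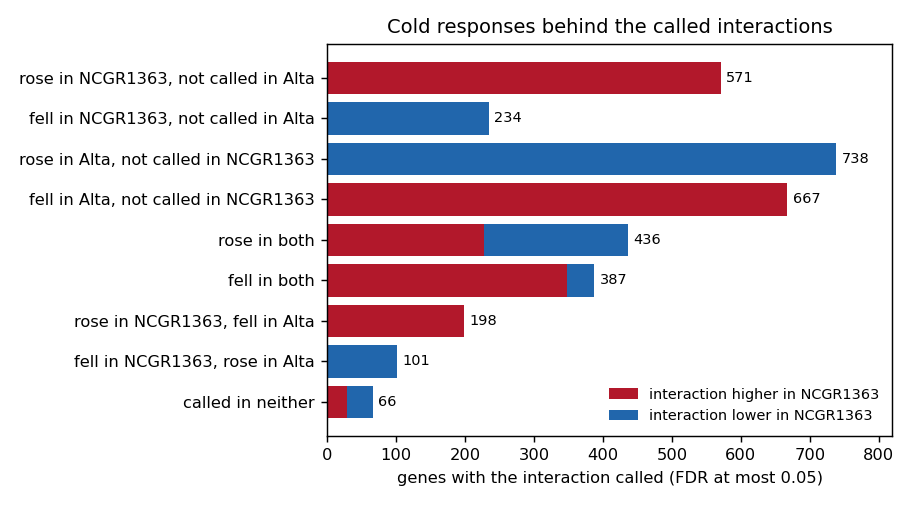
Number of the 3398 interaction genes in each class of cold response (horizontal bars, from 0), by whether the response was called in ‘NCGR1363’, in ‘Alta’ or in both. The genes called in ‘Alta’ alone (738 that rose and 667 that fell) outnumbered those called in ‘NCGR1363’ alone (571 and 234). Over all genes tested the cold response was also called more often in ‘Alta’ (49.6%) than in ‘NCGR1363’ (39.9%).

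The genotypes differed at 42 d in 2362 of the 3398 genes (69.5%) and at 0 h in 1091 (32.1%), beside 27.3% and 13.6% of all genes tested. The interaction equals the genotype difference at 42 d less that at 0 h, so higher shares follow from choosing genes by it. The classes below were not counted over all genes. The difference was called at 42 d but not at 0 h in 1859 genes (54.7%), at 0 h but not at 42 d in 588 (17.3%), and at both with opposite signs in 413 (12.2%). The share called at 42 d alone was 49.2% without cold-treated ‘Alta’ replicate 2 and up to 67.5% without other single libraries. These counts rest on the shared estimate of the spread.

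The share of genes called depended on expression level. Among genes with a mean below 1 CPM over the leaf libraries 2.91% of 2201 were called, from 1 to 10 CPM 10.3% of 5579, from 10 to 100 CPM 22.1% of 9370, and at 100 CPM and above 33.5% of 2065. In the group at 100 CPM and above 555 genes were higher and 137 lower in their response in ‘NCGR1363’, with a median interaction of 0.343. With DESeq2 size factors these were 480 and 160 genes and a median of 0.274, and without cold-treated ‘NCGR1363’ replicate 2 they were 668 and 298 genes and 0.229. CPM are not divided by transcript length, so these groups are of read abundance.

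The interaction genes were spread over the genome. Between 17.0% and 18.1% of the genes tested were called on each of the 7 chromosomes, as read from the gene identifiers. The interval on chromosome 2 in which the study had mapped a locus for freezing tolerance held 85 called genes of 491 tested (17.3%), and the rest of chromosome 2 stood at 18.3%. The interval genes were 51 higher and 34 lower, but 38 higher and 43 lower with DESeq2 size factors, 58 and 62 by the DESeq2 test, and 70 and 63 without cold-treated ‘NCGR1363’ replicate 2. Over all genes, 60% of the called genes were higher in the main fit. That share was 53% with DESeq2 size factors, 51.8% by the DESeq2 test and 53.5% without that replicate. The balance of directions thus changed with the setting in the interval and over all genes alike. Gene names came only from the study's annotation of this interval, in which 369 of the tested genes carry a description and 68 of them were called (42 higher, 26 lower). The gene groups that follow are therefore groups of interval genes, put together by words in these descriptions, and their counts can be read beside the 10.6% higher and 7.07% lower over all genes. These shares depend on expression level, with 555 higher and 137 lower of 2065 genes at 100 CPM and above, and the groups were not matched for level. The groups overlap, because a gene can belong to several of them. The same called gene can therefore be counted again in another group. Counts without cold-treated ‘NCGR1363’ replicate 2 have as background the 2994 higher and 2600 lower of 19168 genes in that refit.

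Genes for RNA and protein synthesis were called in 1 direction only. Of the 20 members tested, 8 had a higher response in ‘NCGR1363’ and none a lower one; the median interaction was 0.38, and 17 members rose in cold-treated ‘NCGR1363’ leaves against 7 in ‘Alta’, beside rises in 21.4% and 24.4% of all genes. Refits that each dropped 1 leaf library called 5 to 8 members higher, 5 of them without ‘NCGR1363’ 42 d replicate 3, ‘NCGR1363’ 0 h replicate 2 or 3, ‘Alta’ 42 d replicate 2 or ‘Alta’ 0 h replicate 2, and none lower. The list's median change from the untreated leaves of the same genotype was 0.719, 0.657 and 0.667 on the log2 scale in ‘NCGR1363’ replicates 1 to 3 and 0.129, 0.109 and 0.0964 in the ‘Alta’ replicates, so the groups did not overlap and replicate 2 was like the other 2. DEAD-box ATP-dependent RNA helicases unwind RNA duplexes. RNA helicase 39 (FvH4_2g12870) had 210, 240 and 219 CPM in ‘NCGR1363’ at 42 d against 46.3, 53.7 and 53.4 CPM at 0 h, and 118, 140 and 139 CPM in ‘Alta’ at 42 d against 69.1, 69.7 and 71 CPM at 0 h, and the highest untreated value was below every cold-treated one. Its transcript accumulation rose in both genotypes, by 2.13 in ‘NCGR1363’ and 0.92 in ‘Alta’, an interaction of 1.20 ± 0.14 (SE, FDR 0.00105). RNA helicase 47B (FvH4_2g15280) had 150, 114 and 140 CPM in the cold-treated ‘NCGR1363’ leaves and 54, 44.4 and 52.8 CPM in the untreated ones, with 78.2, 75.9 and 76.9 CPM in cold-treated and 66.3, 79.4 and 72.1 CPM in untreated ‘Alta’ leaves. It rose in ‘NCGR1363’ leaves only by the calls, with cold responses of 1.42 (FDR 1.58e-05) in ‘NCGR1363’ and 0.08 (FDR 0.594) in ‘Alta’, and the interaction was 1.33 ± 0.17 (SE, FDR 0.00137).

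The other called members, ribosomal proteins among them, had interactions of the same sign. The 40S ribosomal protein S8 gene (FvH4_2g18130) had 32.4, 31.6 and 31.6 CPM in ‘NCGR1363’ at 42 d against 30.1, 20.2 and 17.1 CPM at 0 h, and 20.9, 18.3 and 20.5 CPM in ‘Alta’ at 42 d against 31.7, 39.7 and 39.4 CPM at 0 h, and its interaction of 1.39 ± 0.26 (SE, FDR 0.00595) joined a rise of 0.50 in ‘NCGR1363’ to a change of −0.89 in ‘Alta’, where it fell. The gene of the large-subunit protein L3 (FvH4_2g13300) had 909, 653 and 784 CPM in the cold-treated ‘NCGR1363’ leaves and 571, 401 and 354 CPM in the untreated ones, with 519, 568 and 610 CPM in cold-treated and 631, 796 and 744 CPM in untreated ‘Alta’ leaves, an interaction of 1.18 ± 0.27 (SE, FDR 0.0154). It rose by 0.82 in ‘NCGR1363’, while the ‘Alta’ groups differed by −0.36 and did not pass the test. For both S8 and L3, every untreated ‘NCGR1363’ library lay below every untreated ‘Alta’ library. The cold-treated ‘NCGR1363’ libraries overlapped the range of untreated ‘Alta’ leaves. Ribosomal protein genes exist in near-identical copies in plants, and reads shared between copies make their levels uncertain. LSM3B (FvH4_2g13861), a subunit of the LSM complexes of mRNA decay and splicing, had an interaction of 0.91 (FDR 0.00758), ribosomal protein L32-1 (FvH4_2g18030) of 0.99 (FDR 0.0291), the translation initiation factor eIF-2B epsilon subunit (FvH4_2g12670) of 0.71 (FDR 0.024), and ribosomal protein S10-1 (FvH4_2g15610) of 0.50 (FDR 0.0475).

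Pentatricopeptide repeat proteins bind organellar RNA and take part in its editing, splicing and stability. All 15 genes tested had an interaction above 0 with TMM scaling (13 of 15 with DESeq2 size factors, and 13 to 15 without single libraries), with a median of 0.50. Of the 491 interval genes tested, 268 had an interaction above 0. Only 2 passed the test, a share of 13.3% that is below the 17.7% over all genes. The cold response itself was called as a rise in 8 of the 15 members in ‘NCGR1363’ and in 3 in ‘Alta’, beside 21.4% and 24.4% of all genes. With DESeq2 size factors 0 members passed the interaction test. The called genes FvH4_2g17180 and FvH4_2g14640 had interactions of 0.91 (FDR 0.041) and 1.09 (FDR 0.0437), and 11 and 9 of the 12 refits without single libraries no longer called them, with values running from 0.80 to 0.98 and from 0.95 to 1.29.

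Chloroplast genes also stood mostly above 0. Of 31 tested, 25 had an interaction above 0, 8 were called higher and 1 lower, and the median was 0.68. Without cold-treated ‘NCGR1363’ replicate 2 the median was 0.39, with 21 above 0, 10 called higher and 1 lower. The per-library median change was 0.153, 0.392 and 0.153 in cold-treated ‘NCGR1363’ against −0.274, −0.331 and −0.213 in cold-treated ‘Alta’, with no overlap. The summed level of the 36 genes of the list was 3160 to 4680 CPM in ‘NCGR1363’ at 42 d against 4330 to 4450 CPM at 0 h, and 2760 to 2840 CPM in ‘Alta’ at 42 d against 4330 to 4490 CPM at 0 h. In ‘Alta’ the cold-treated sums lay below the untreated ones, while in ‘NCGR1363’ the ranges overlapped. Between 6 and 10 chloroplast genes were called higher when single libraries were left out, 13 in a fit of all 23 libraries without the crown library named above, and 0 in a fit of all 24. Among all genes at 100 CPM and above, 555 of 2065 were called higher, with a median interaction of 0.343. The chloroplast list was not matched for expression level.

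Among the chloroplast members, the gene of the ATP-dependent Clp protease proteolytic subunit 6 (FvH4_2g13930), part of the main stromal protease, had 185, 207 and 189 CPM in ‘NCGR1363’ at 42 d against 164, 132 and 148 CPM at 0 h, and 102, 95.1 and 83 CPM in ‘Alta’ at 42 d against 124, 149 and 150 CPM at 0 h. It rose by 0.39 in ‘NCGR1363’ and changed by −0.59 in ‘Alta’, where it fell; the interaction was 0.98 ± 0.17 (SE, FDR 0.0049). Fructose-1,6-bisphosphatase (FvH4_2g11590), an enzyme of the Calvin cycle, had 102, 161 and 120 CPM in the cold-treated ‘NCGR1363’ leaves and 66.5, 80.9 and 84.2 CPM in the untreated ones, with 73, 89.9 and 68.9 CPM in cold-treated and 95.9, 93.9 and 91.6 CPM in untreated ‘Alta’ leaves, with an interaction of 1.01 ± 0.24 (SE, FDR 0.0169). It rose in ‘NCGR1363’, and its ‘Alta’ response of −0.28 (FDR 0.192) was not called. The copper-transporting ATPase PAA1 (FvH4_2g11930), which imports copper into the chloroplast, had 156, 147 and 155 CPM in ‘NCGR1363’ at 42 d against 126, 117 and 139 CPM at 0 h, and 135, 114 and 116 CPM in ‘Alta’ at 42 d against 166, 164 and 160 CPM at 0 h and an interaction of 0.68 ± 0.14 (SE, FDR 0.0093). In each of these 3 genes all cold-treated ‘NCGR1363’ libraries lay above the untreated ones and all cold-treated ‘Alta’ libraries below theirs. The glutamate-tRNA ligase gene for chloroplasts and mitochondria (FvH4_2g14910), whose enzyme charges a tRNA with glutamate, had 303, 222 and 306 CPM in ‘NCGR1363’ at 42 d against 148, 113 and 128 CPM at 0 h, and 194, 150 and 185 CPM in ‘Alta’ at 42 d against 180, 215 and 209 CPM at 0 h, and an interaction of 1.29 ± 0.23 (SE, FDR 0.00481). It rose in ‘NCGR1363’ by 1.10, and the ‘Alta’ response of −0.19 (FDR 0.349) was not called.

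Other chloroplast members had a called cold response in ‘Alta’ and none in ‘NCGR1363’. Thioredoxin M (FvH4_2g14900), which passes reducing power from photosynthesis to stromal enzymes, had 484, 928 and 592 CPM in the cold-treated ‘NCGR1363’ leaves and 715, 966 and 897 CPM in the untreated ones, with 390, 285 and 309 CPM in cold-treated and 938, 857 and 914 CPM in untreated ‘Alta’ leaves; it fell by 1.46 on the log2 scale in ‘Alta’, the ‘NCGR1363’ response of −0.36 (FDR 0.231) was not called, and the interaction was 1.10 ± 0.32 (SE, FDR 0.0393). The small subunit of geranylgeranyl pyrophosphate synthase (FvH4_2g15810), an enzyme of the precursor of chlorophyll and carotenoids, had an interaction of 0.89 (FDR 0.0132), and a subunit of the chloroplast pyruvate dehydrogenase complex (FvH4_2g12130), which feeds fatty acid synthesis, of 0.84 (FDR 0.0442). Both fell in ‘Alta’, by 0.73 and 0.87 on the log2 scale. In contrast to these, carbonic anhydrase 2 (FvH4_2g14190) fell steeply in both genotypes, by 4.39 in ‘NCGR1363’ and 6.33 in ‘Alta’ on the log2 scale, and its interaction of 1.94 (FDR 0.168) did not pass the test. Its untreated ‘NCGR1363’ replicates were wide apart, at 782, 134 and 199 CPM.

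The hormone and cold signalling genes stood on the other side. Of 13 tested, 12 had an interaction below 0, 4 were called lower and 1 higher, and the median was −0.61. With all leaf libraries 1 member had an interaction above 0, and without ‘NCGR1363’ 0 h replicate 1 there were 3. The cold response was a called rise in 3 members in ‘NCGR1363’ and in 8 in ‘Alta’; the first is about the 21.4% over all genes and the second is above the 24.4%. The per-library median change was −0.117, 0.427 and 0.0225 in cold-treated ‘NCGR1363’ against 0.768, 1.14 and 0.427 in cold-treated ‘Alta’, so that ‘NCGR1363’ replicate 2 reached the lowest ‘Alta’ library. Between 1 and 6 members were called lower when single libraries were left out, with 6 without ‘NCGR1363’ 42 d replicate 2, 2 without ‘NCGR1363’ 42 d replicate 1 or ‘Alta’ 0 h replicate 2, and 1 without ‘NCGR1363’ 42 d replicate 3, ‘NCGR1363’ 0 h replicate 2 or 3, ‘Alta’ 42 d replicate 2 or ‘Alta’ 0 h replicate 3. CTR1 (FvH4_2g15800), a kinase that represses ethylene responses until the hormone is perceived, had 22.4, 36 and 29.9 CPM in ‘NCGR1363’ at 42 d against 30.6, 25.5 and 24.3 CPM at 0 h, and 33.7, 71.7 and 104 CPM in ‘Alta’ at 42 d against 23, 21.7 and 20.1 CPM at 0 h. The 3 cold-treated ‘Alta’ libraries were themselves spread over more than a 3-fold range, the interaction was −1.56 ± 0.46 (SE, FDR 0.0396), and 10 of the 12 refits without single libraries no longer called it, with values of −1.89 to −1.15.

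G-box-binding factor 4 (FvH4_2g13640), a bZIP transcription factor whose DNA element occurs in light- and abscisic acid-regulated promoters, was steadier. It had 10.9, 15.3 and 11.1 CPM in the cold-treated ‘NCGR1363’ leaves and 11.8, 10.8 and 10.3 CPM in the untreated ones, with 18.8, 18.8 and 16.6 CPM in cold-treated and 8.75, 8.09 and 7.87 CPM in untreated ‘Alta’ leaves, so that cold-treated ‘Alta’ leaves were the highest group, untreated ‘Alta’ leaves the lowest, and the ‘NCGR1363’ groups overlapped in between. It rose in ‘Alta’ by 1.13 (FDR 0.000162), the ‘NCGR1363’ response was 0.18 (FDR 0.37), and the interaction was −0.95 ± 0.21 (SE, FDR 0.0136). The phytosulfokine receptor 2 gene (FvH4_2g13190), which encodes a receptor kinase for a peptide growth hormone, had 1.36, 5.28 and 1.75 CPM in ‘NCGR1363’ at 42 d against 6.05, 5.62 and 6.67 CPM at 0 h, and 4.1, 7.49 and 4.28 CPM in ‘Alta’ at 42 d against 2.69, 2.22 and 1.77 CPM at 0 h. Its interaction was −2.38 ± 0.65 (SE, FDR 0.0314), and −3.23 to −2.04 in the refits, 6 of which lost the call. The gene described as UPF0496 protein 4 (FvH4_2g13680) fell in ‘NCGR1363’, by 0.73 on the log2 scale, and had an interaction of −1.0 (FDR 0.0318), lost in 7 of those refits. The one member called higher was AIR12 (FvH4_2g18001), a membrane-bound cytochrome b gene that auxin induces in root cultures, at 1.29 (FDR 0.0259), lost in 7 refits as well.

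Several strongly cold-induced signalling genes did not pass the interaction test. GIGANTEA (FvH4_2g13030), a protein of the circadian clock, rose in both genotypes, by 1.21 in ‘NCGR1363’ and 1.33 in ‘Alta’, and the interaction was −0.12 ± 0.21 (SE, FDR 0.736). AFP2 (FvH4_2g18440), a repressor of abscisic acid signalling, had 1.42, 6.85 and 4.31 CPM in ‘NCGR1363’ at 42 d against 0.396, 0.339 and 0.37 CPM at 0 h, and 18, 21.1 and 22.1 CPM in ‘Alta’ at 42 d against 0, 0.533 and 0 CPM at 0 h. It rose by 3.47 in ‘NCGR1363’ and 6.92 in ‘Alta’, with an interaction of −3.45 (FDR 0.0737). ABR1 (FvH4_2g13240), an ethylene response factor that represses abscisic acid responses, had 0.371, 18.3 and 12.6 CPM in the cold-treated ‘NCGR1363’ leaves and 0.226, 0.271 and 0.0741 CPM in the untreated ones, with 40, 133 and 121 CPM in cold-treated and 0.538, 0.356 and 0 CPM in untreated ‘Alta’ leaves, and its interaction of −2.60 ± 2.35 (SE, FDR 0.48) has an error too wide to place it on either side of 0. The cold-treated ‘NCGR1363’ libraries were far apart in this gene, replicate 1 being at 0.371 CPM and replicates 2 and 3 at 18.3 and 12.6 CPM.

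**Figure D4:**
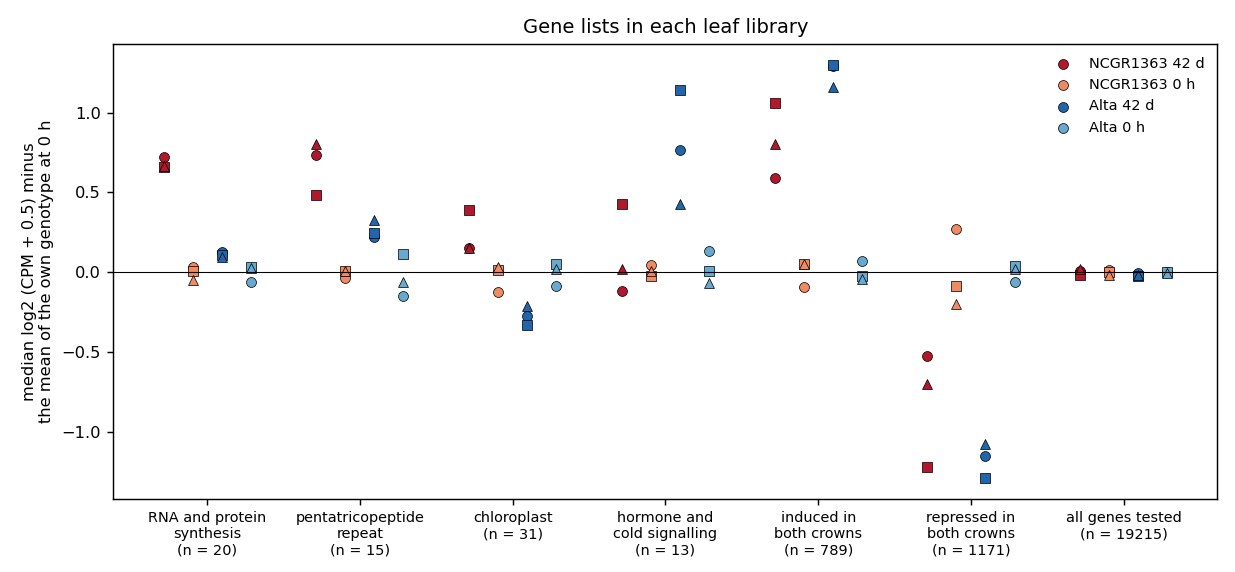
Median change from the mean of the untreated leaves of the same genotype, as log2(CPM + 0.5), over the members of 7 gene lists in each of the 12 leaf libraries; the libraries are grouped as cold-treated and untreated ‘NCGR1363’ and ‘Alta’. The RNA and protein synthesis, pentatricopeptide repeat and chloroplast lists lay higher in all 3 cold-treated ‘NCGR1363’ libraries than in cold-treated ‘Alta’, and the crown-induced list lay lower (0.587, 1.06 and 0.8 against 1.29, 1.3 and 1.16).

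A pair of alcohol dehydrogenase genes with neighbouring identifiers responded more strongly in ‘Alta’. These enzymes interconvert alcohols and aldehydes, and the classical plant enzyme carries out ethanol fermentation. FvH4_2g14760 had 53.1, 66.8 and 48.4 CPM in ‘NCGR1363’ at 42 d against 3.79, 4.06 and 2.67 CPM at 0 h, and 386, 234 and 289 CPM in ‘Alta’ at 42 d against 6.53, 6.04 and 6.59 CPM at 0 h, so that it rose in both genotypes and the 3 cold-treated ‘Alta’ libraries were all above the 3 of ‘NCGR1363’. The rise was 3.99 in ‘NCGR1363’ and 5.57 in ‘Alta’ on the log2 scale, an interaction of −1.57 ± 0.30 (SE, FDR 0.00633). FvH4_2g14750, described as alcohol dehydrogenase-like, had 55.4, 92.6 and 64.3 CPM in the cold-treated ‘NCGR1363’ leaves and 47.6, 60.9 and 66.7 CPM in the untreated ones, with 389, 381 and 213 CPM in cold-treated and 77.3, 75.9 and 74.4 CPM in untreated ‘Alta’ leaves. It rose in ‘Alta’ by 2.11 (FDR 7.71e-05), while the ‘NCGR1363’ response was 0.28 (FDR 0.4), an interaction of −1.83 ± 0.35 (SE, FDR 0.00652). Both calls held in each of the 12 refits. The pair may share reads if their sequences are alike, which was not examined, and their levels are uncertain to that degree.

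The list of redox and specialised metabolism, to which the pair belongs, had 3 higher and 4 lower of 24 tested. With DESeq2 size factors 1 was higher and 4 lower, without cold-treated ‘NCGR1363’ replicate 2 these were 6 and 4, and the other refits gave 1 to 4 higher and 4 lower. The cold response was called in 7 of the 24 members in ‘NCGR1363’ and in 17 in ‘Alta’, beside 39.9% and 49.6% of all genes tested. Peroxidase 12 (FvH4_2g13110), a secreted heme peroxidase, had 144, 132 and 127 CPM in ‘NCGR1363’ at 42 d against 179, 155 and 138 CPM at 0 h, and 190, 218 and 178 CPM in ‘Alta’ at 42 d against 122, 127 and 122 CPM at 0 h and an interaction of −0.89 ± 0.17 (SE, FDR 0.00595). The monooxygenase FMO1 (FvH4_2g16430), whose Arabidopsis counterpart makes the systemic immunity signal N-hydroxypipecolic acid, was the reverse. It had 20.3, 14.9 and 24.4 CPM in the cold-treated ‘NCGR1363’ leaves and 2.04, 1.29 and 4 CPM in the untreated ones, with 32.9, 19.5 and 35.4 CPM in cold-treated and 21.1, 19.6 and 18.2 CPM in untreated ‘Alta’ leaves. The untreated ‘NCGR1363’ leaves were the low group, with a genotype difference of −3.02 (FDR 0.00046) at 0 h, and the interaction of 2.46 ± 0.49 (SE, FDR 0.00809) went with a rise of 3.03 in ‘NCGR1363’, to a level at which the genotypes were no longer called different (−0.56, FDR 0.23, at 42 d). Outside the list, a gene of the cytochrome b561 and DOMON group (FvH4_2g17300), which carry electrons across membranes, had an interaction of −1.33 (FDR 0.0347), lost in 9 of the refits. Of 4 quinone oxidoreductase genes tested 1 was called, the chloroplastic FvH4_2g18320 at −0.84 (FDR 0.00883); it fell by 1.02 in ‘NCGR1363’ and was the chloroplast gene called lower.

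Of 30 membrane transport genes tested, 5 were higher and 1 lower in ‘NCGR1363’, with a median of 0.35. Without cold-treated ‘NCGR1363’ replicate 2 these were 8 and 4, and the other refits gave 2 to 6 higher and 1 to 2 lower. The ABC transporter G family member 22-like gene (FvH4_2g14330), whose Arabidopsis namesake bears on stomatal closure, had 25.9, 4.71 and 23.5 CPM in ‘NCGR1363’ at 42 d against 0.679, 0.0677 and 0.445 CPM at 0 h, and 4.16, 1.47 and 2.56 CPM in ‘Alta’ at 42 d against 1.75, 2.22 and 2.57 CPM at 0 h. It rose by 5.45 in ‘NCGR1363’, the ‘Alta’ response of 0.33 (FDR 0.702) was not called, and the interaction was 5.12 ± 1.00 (SE, FDR 0.00739). Cold-treated ‘NCGR1363’ replicate 2 was much the lowest of its group and still above every untreated ‘NCGR1363’ library, whose counts were few. The interaction held in every refit, at 4.64 to 5.80. Outside the list, the WAT1-related gene (FvH4_2g13810), of a family that includes a vacuolar auxin exporter, had 18, 28.8 and 21.2 CPM in the cold-treated ‘NCGR1363’ leaves and 57, 39.7 and 41.8 CPM in the untreated ones, with 5.53, 3.29 and 3.92 CPM in cold-treated and 23.4, 36 and 37.4 CPM in untreated ‘Alta’ leaves. It fell in both genotypes, but less in ‘NCGR1363’ (−1.02) than in ‘Alta’ (−2.92), an interaction of 1.90 ± 0.36 (SE, FDR 0.00682).

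The vacuolar iron transporter gene (FvH4_2g13960) had 1.73, 0.999 and 1.55 CPM in ‘NCGR1363’ at 42 d against 1.13, 2.51 and 0.815 CPM at 0 h, and 0.31, 0.56 and 0.535 CPM in ‘Alta’ at 42 d against 2.22, 2.49 and 3.7 CPM at 0 h, and it fell in ‘Alta’ with an interaction of 2.51 ± 0.65 (SE, FDR 0.024), lost in 4 of the refits. The lysine histidine transporter-like 7 gene (FvH4_2g16052) had an interaction of 2.88 (FDR 0.0354), lost in 9. In the other direction, the mechanosensitive ion channel 6-like gene (FvH4_2g15780), of a family that opens under membrane tension, had 5.25, 5.21 and 5.51 CPM in the cold-treated ‘NCGR1363’ leaves and 4.19, 4.33 and 4.37 CPM in the untreated ones, with 12.9, 8.76 and 12.2 CPM in cold-treated and 3.43, 3.29 and 2.89 CPM in untreated ‘Alta’ leaves. It rose in ‘Alta’ by 1.82 (FDR 3.04e-05), against 0.31 (FDR 0.205) in ‘NCGR1363’, and the interaction was −1.51 ± 0.26 (SE, FDR 0.00435). The sugar transporter SWEET1-like gene (FvH4_2g14860) had 55.1, 102 and 61.8 CPM in ‘NCGR1363’ at 42 d against 44.9, 47.3 and 49.5 CPM at 0 h, and 158, 192 and 109 CPM in ‘Alta’ at 42 d against 52.4, 46.2 and 46.8 CPM at 0 h and did not pass the test, at −1.03 ± 0.34 (SE, FDR 0.0571); cold-treated ‘NCGR1363’ replicate 2 was the highest of its group and close to the lowest ‘Alta’ library. The SUC2-like sucrose transporter gene was at 0 counts in untreated ‘Alta’ and its interaction was not called.

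Kinase and phosphatase genes had 3 higher and 3 lower of 29 tested, an even count that did not hold across settings. There were 1 higher and 4 lower with DESeq2 size factors, 5 and 5 without cold-treated ‘NCGR1363’ replicate 2, and 1 to 3 higher and 0 to 4 lower without other single libraries. A phosphatase of lipid signalling, outside this list, is encoded by the type I inositol trisphosphate 5-phosphatase gene (FvH4_2g12960), whose enzyme removes a phosphate from the second messenger inositol trisphosphate, and which had 12.8, 10.7 and 9.92 CPM in ‘NCGR1363’ at 42 d against 11.7, 13 and 13.8 CPM at 0 h, and 38.2, 27.4 and 34.9 CPM in ‘Alta’ at 42 d against 13.9, 13.4 and 12.4 CPM at 0 h. Only cold-treated ‘Alta’ leaves stood apart, at more than 2 times the level of each other group. It rose in ‘Alta’ by 1.34 (FDR 5.18e-05), while the ‘NCGR1363’ response was −0.20 (FDR 0.325), giving an interaction of −1.54 ± 0.21 (SE, FDR 0.00178) with the call kept without each library in turn. The RCH1-like receptor kinase gene (FvH4_2g14410) had 36.4, 19.1 and 31.9 CPM in the cold-treated ‘NCGR1363’ leaves and 65.7, 66.2 and 67.7 CPM in the untreated ones, with 13.4, 7.42 and 11.5 CPM in cold-treated and 78.8, 83.2 and 83.9 CPM in untreated ‘Alta’ leaves. It fell in both genotypes, by less in ‘NCGR1363’ (−1.19) than in ‘Alta’ (−2.92), with an interaction of 1.73 ± 0.33 (SE, FDR 0.00671). Smaller interactions lost in 8 of the refits each were those of the HT1-like kinase (FvH4_2g14210), at −0.66 (FDR 0.0256), and of the phosphatidylinositol phosphate kinase FAB1D (FvH4_2g12440), at −0.75 (FDR 0.0316).

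**Figure D5:**
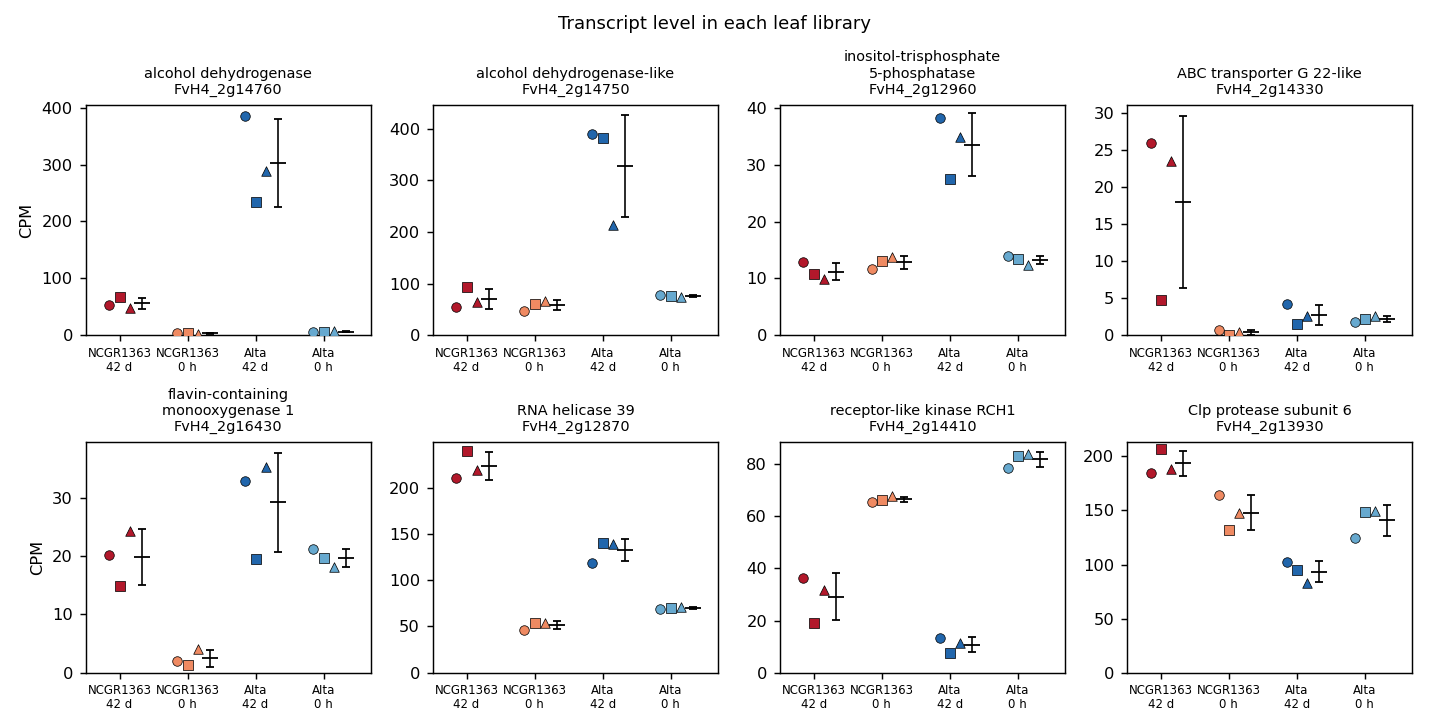
Transcript accumulation (CPM, axes from 0) of 8 interval genes in the 12 leaf libraries; circles, squares and triangles are replicates 1, 2 and 3, and the lines are the mean ± SD of each group of 3. In both alcohol dehydrogenases and the inositol phosphatase cold-treated ‘Alta’ leaves were the highest group, in the ABC transporter, helicase 39 and Clp subunit 6 cold-treated ‘NCGR1363’ leaves were, in FMO1 untreated ‘NCGR1363’ leaves were the lowest, and in the RCH1-like kinase both genotypes fell.

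Protein turnover genes gave 2 higher and 3 lower of 22, with 3 and 6 without cold-treated ‘NCGR1363’ replicate 2 and 1 to 3 higher and 1 to 4 lower without other single libraries. The F-box gene SKIP23 (FvH4_2g15930) had an interaction of −0.89 (FDR 0.0164) that held in every refit, and the tubby-like F-box gene (FvH4_2g13720) one of −0.66 (FDR 0.0352) that was lost in 9. Among the 20 transcription factor genes 1 was higher and 1 lower (the G-box-binding factor above), a share of 10% that is below the background; without cold-treated ‘NCGR1363’ replicate 2 there were 0 higher and 4 lower. The NAC domain 86-like gene (FvH4_2g12690) had −0.68 (FDR 0.0549) and scarecrow-like 1 (FvH4_2g15030) −1.11 (FDR 0.0692), both outside the threshold. The IBH1-like gene (FvH4_2g17750), of a small helix-loop-helix family that restrains cell elongation, was called at 5.31 (FDR 0.0338), but cold-treated ‘Alta’ leaves had at most 3 counts in each library, so the size depends on the prior count of the fit and 9 of the refits lost the call.

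Genes outside these groups came under the rule as well. The dCTP pyrophosphatase gene (FvH4_2g17930), whose enzyme clears modified nucleotides, had 9.95, 15.3 and 11.1 CPM in ‘NCGR1363’ at 42 d against 25.2, 18.6 and 19.7 CPM at 0 h, and 22.9, 32.8 and 21.4 CPM in ‘Alta’ at 42 d against 12.4, 16.8 and 15.4 CPM at 0 h and changed in opposite directions: it fell in ‘NCGR1363’, with a response of −0.81 (FDR 0.0136), and rose in ‘Alta’, with 0.79 (FDR 0.0119), an interaction of −1.59 ± 0.31 (SE, FDR 0.00722). The citrate-binding protein gene (FvH4_2g13513) had 6.98, 2.85 and 5.21 CPM in the cold-treated ‘NCGR1363’ leaves and 5.26, 4.27 and 4 CPM in the untreated ones, with 6.83, 11.1 and 15.2 CPM in cold-treated and 1.75, 1.07 and 2.41 CPM in untreated ‘Alta’ leaves and rose in ‘Alta’ only by the calls, by 2.65, with an interaction of −2.50 ± 0.56 (SE, FDR 0.0137). The lysozyme D-like gene (FvH4_2g18210) fell in both genotypes, and in cold-treated ‘NCGR1363’ leaves almost to nothing. It had 0, 0.285 and 0.0501 CPM in ‘NCGR1363’ at 42 d against 2.71, 5.28 and 4.15 CPM at 0 h, and 2.36, 2.94 and 1.54 CPM in ‘Alta’ at 42 d against 7.88, 5.42 and 5.14 CPM at 0 h, and the interaction was −3.76 ± 0.84 (SE, FDR 0.0128); since the cold-treated ‘NCGR1363’ libraries held 0, 4 and 1 counts, its size depends on the prior count. The bromodomain protein 9 gene (FvH4_2g16690), of a chromatin reader family, rose by more in ‘Alta’ (1.87) than in ‘NCGR1363’ (0.68), at −1.20 (FDR 0.00654).

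The remaining calls among these named genes were of several functions. A magnesium-dependent phosphatase (FvH4_2g11710) had an interaction of 1.12 (FDR 0.00408) and a rhodanese-like protein gene (FvH4_2g17470) one of 0.91 (FDR 0.00915). The ALG13-like gene of protein glycosylation (FvH4_2g14670) had 2.34 (FDR 0.037) and the GLABRA2 expression modulator gene (FvH4_2g18080) 1.41 (FDR 0.0421), lost in 8 and 9 of the refits.

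No member was called in the lists for the cell wall (19 tested), disease resistance (12), lignifying vascular and endodermal cells (6), 3-hydroxy-3-methylglutaryl-CoA reductase, the enzyme that commits carbon to sterols and other isoprenoids (5), cell division (4), stomatal lineage (2) and reproductive organs (2). Several of these counts changed without cold-treated ‘NCGR1363’ replicate 2: without it 3 cell wall genes and 2 lignifying genes were higher, and 1 disease resistance gene and 3 of the 5 reductase genes were lower, with a median of −1.94 for the reductases in place of −0.934. That refit called more genes in general, with 2994 higher and 2600 lower of 19168 tested, so a gain in calls was not particular to these lists. Within the HMG-CoA reductases, FvH4_2g17080 and FvH4_2g17090 had interactions of −2.28 (FDR 0.0627) and −2.12 (FDR 0.0797); they carry the same description, and reads may be shared between them. Laccase-14 (FvH4_2g12620), an oxidase of lignin precursors, had 93.6, 2.78 and 41.9 CPM in ‘NCGR1363’ at 42 d against 123, 29.4 and 36.5 CPM at 0 h, and 3.97, 3.71 and 3.21 CPM in ‘Alta’ at 42 d against 21.5, 97.3 and 81.1 CPM at 0 h and was not called, at 3.74 (FDR 0.0849), the replicates of 3 of the 4 groups being several-fold apart. Marker levels of other cells varied between libraries and groups. The summed lignifying list was 52.5 to 306 CPM in ‘NCGR1363’ at 42 d against 86.4 to 312 CPM at 0 h, and 43.1 to 78.2 CPM in ‘Alta’ at 42 d against 80.1 to 231 CPM at 0 h. The cell division list was 6.19 to 25.3 CPM in ‘NCGR1363’ at 42 d against 10.3 to 19.6 CPM at 0 h, and 5.32 to 9.58 CPM in ‘Alta’ at 42 d against 14 to 20.2 CPM at 0 h. The reproductive list, which here was mostly an oleosin gene of lipid bodies, was 16.6 to 54.7 CPM in ‘NCGR1363’ at 42 d against 146 to 207 CPM at 0 h, and 27.1 to 55.6 CPM in ‘Alta’ at 42 d against 99.3 to 131 CPM at 0 h. Its cold-treated sums lay below the untreated ones in both genotypes. The part of such cells in the gene differences above was not tested.

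Over the whole genome, the 2 lowest and 2 highest called interactions among genes with a mean of at least 10 CPM all lay outside the interval, where the files do not pair identifiers with names. FvH4_5g35401, on chromosome 5, had 3.15, 2.5 and 3.06 CPM in ‘NCGR1363’ at 42 d against 9.62, 16.9 and 20.6 CPM at 0 h, and 216, 206 and 278 CPM in ‘Alta’ at 42 d against 14.9, 14.6 and 12.7 CPM at 0 h, so that it fell in ‘NCGR1363’ (−2.42) and rose in ‘Alta’ (4.05), an interaction of −6.47 ± 0.36 (SE, FDR 4.24e-05). FvH4_2g21430 on chromosome 2 had 2.35, 4.43 and 3.66 CPM in the cold-treated ‘NCGR1363’ leaves and 3.73, 3.45 and 2.3 CPM in the untreated ones, with 21.1, 192 and 324 CPM in cold-treated and 1.89, 2.22 and 2.73 CPM in untreated ‘Alta’ leaves, and its interaction was −6.17 ± 1.11 (SE, FDR 0.00507), although the cold-treated ‘Alta’ libraries were more than 10-fold apart. At the other end, FvH4_6g08720 on chromosome 6 had 4307, 199 and 3142 CPM in ‘NCGR1363’ at 42 d against 12350, 4468 and 6209 CPM at 0 h, and 2.79, 6.09 and 22.5 CPM in ‘Alta’ at 42 d against 1164, 2259 and 2240 CPM at 0 h. It fell far in ‘Alta’ (−7.49) and the interaction was 5.90 ± 1.40 (SE, FDR 0.0171), with cold-treated ‘NCGR1363’ replicate 2 at 199 CPM well below the other 2. FvH4_2g25990 had 19.1, 0.214 and 10 CPM in the cold-treated ‘NCGR1363’ leaves and 68.3, 25.7 and 7.56 CPM in the untreated ones, with 0.435, 0.21 and 0.535 CPM in cold-treated and 36.5, 61.1 and 58.5 CPM in untreated ‘Alta’ leaves and an interaction of 5.21 ± 1.59 (SE, FDR 0.0452), which 10 of the 12 refits did not call.

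A set of cold genes chosen without any leaf library was also followed: genes whose transcripts changed at least 2-fold in the cold in crowns of both genotypes, by calls in the 11 crown libraries without the one that stood apart. Of 834 such crown-induced genes, 789 were tested in leaves. There 416 rose in ‘NCGR1363’ and 543 in ‘Alta’, the median response was 0.986 in ‘NCGR1363’ and 1.43 in ‘Alta’, and the median interaction was −0.474 beside 0.075 over all genes. The interaction was called in 26.7% of them, 80 higher and 131 lower. Among the 181 that were tested and had risen at least 4-fold in crowns, 5 were higher and 42 lower, with a median of −1.17 and responses of 1.38 in ‘NCGR1363’ and 2.85 in ‘Alta’. The leaf libraries kept the order of the genotypes: the list's median change was 0.587, 1.06 and 0.8 in cold-treated ‘NCGR1363’ against 1.29, 1.3 and 1.16 in cold-treated ‘Alta’, with ‘NCGR1363’ replicate 2 nearest to ‘Alta’.

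Crown-repressed genes lay on the other side of 0. Of 1351 such genes 1171 were tested in leaves, where 467 fell in ‘NCGR1363’ and 658 in ‘Alta’, with median responses of −0.948 in ‘NCGR1363’ and −1.52 in ‘Alta’ and a median interaction of 0.649. The interaction was called in 11.9% of them, below the 17.7% over all genes, with 116 higher and 23 lower. The list's median change was −0.523, −1.22 and −0.698 in cold-treated ‘NCGR1363’ against −1.15, −1.29 and −1.08 in cold-treated ‘Alta’, and replicate 2 of ‘NCGR1363’ lay within the ‘Alta’ range. Without that replicate, 90 crown-induced genes were higher and 249 lower (median −0.615), and 272 crown-repressed genes were higher and 53 lower (median 0.776). With the odd crown library included the crown lists were much shorter: 137 induced genes, of which 25 were higher and 15 lower in the leaf interaction with a median of −0.0961, and 396 repressed genes, of which 303 were tested, 12 higher and 11 lower.

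Whether the interaction itself differed between tissues was tested in a fit of both tissues, as the leaf interaction minus the crown interaction. With all 24 libraries 1269 of 20682 genes (6.14%) differed, and without the odd crown library 3035 of 20669 (14.7%) did. The crown interaction was called in 1854 genes with all 24 libraries and in 4334 without that library, and the leaf interaction in 1001 and 5199 in the same fits. Some genes named above, which had been picked by their leaf interactions, differed in both fits. The lysozyme D-like gene FvH4_2g18210 had a leaf minus crown difference of −6.42 with 24 libraries and −6.02 with 23 (FDR 0.00471 and 0.000457), FMO1 (FvH4_2g16430) 5.20 and 4.33 (FDR 0.0296 and 0.0277), and RNA helicase 39 (FvH4_2g12870) 1.72 and 1.40 (FDR 0.00587 and 0.000236). FvH4_6g08720 was called with 24 libraries, at 13.9 (FDR 0.0461), and not with 23, at −0.45 (FDR 0.98), so its difference between tissues rested on that library.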

How the data were processed

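Total RNA of crowns and leaves was sequenced as strand-specific, paired-end libraries on an Illumina HiSeq4000. Per the study's methods, the authors trimmed the reads with TrimGalore, aligned them with Bowtie2 to the predicted mRNAs of the Fragaria vesca v.4.a2 annotation and quantified them with RSEM. The deposited expected counts per gene, which are estimates, are whole numbers. The isoform table was not used, and 0 columns of the gene table lacked a sample. Genotypes were taken from the sample titles, since the genotype label of the ‘NCGR1363’ samples counts upward from sample to sample.

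The 12 leaf libraries were fitted in edgeR 4.0.16 (R 4.3.3) with 1 mean per group, TMM scaling, a minimum of 0.5 CPM in at least 2 libraries, and the quasi-likelihood F-test. The Benjamini-Hochberg adjustment was made over all genes tested, with an FDR threshold of 0.05. The common biological coefficient of variation was 0.275. Correlations used log2 CPM with a prior count of 2, and list changes per library used log2(CPM + 0.5). Each standard error is the size of the log2 value divided by the square root of its F statistic. It rests on the spread that the fit estimated over the 12 leaf libraries together, with 3 replicates per group.

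The members, gene lists and rules were chosen with earlier results of these data known. Genes were named by rule: among described interval genes called with a mean of at least 1 CPM, the 15 lowest and the 15 highest interactions; in each list, up to 4 members of lowest FDR; and over all genes the 2 lowest and 2 highest. A few list members beyond these were picked after their values were seen. Alternatives were DESeq2 1.42.0 (size factors or test), other filters and scalings, a replicate block, single libraries left out, and fits with crowns. Leaving out cold-treated ‘NCGR1363’ replicate 2 from the gene lists, and the fit of 23 libraries, were chosen after seeing the data. The fit was also run on counts simulated from its own average levels and spread, with interactions planted in some genes. The simulated counts met the assumptions of the fit and held no library that stood apart. That run therefore does not bear on how the calls change when single libraries are left out. No gene positions or sequences were used here.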

Additional observations from a re-analysis of the deposited data

Results flagged for a closer look

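The response to cold differed between genotypes in 3398 genes by the interaction test in leaves. Of the named genes, 8 also had a leaf interaction that differed from the crown interaction in the fit of all 24 libraries (edgeR quasi-likelihood test, FDR over all genes). The named genes were 77, of which 46 had a called leaf interaction, and over all genes 6.14% of 20682 differed between tissues. The named genes were picked by their leaf interactions, which are part of this difference, so the count of 8 cannot be set against that share. The leaf minus crown difference was −6.42 for FvH4_2g18210 (lysozyme D-like), −3.88 for FvH4_2g13680 (UPF0496 protein 4), 5.20 for FvH4_2g16430 (FMO1), 2.31 for FvH4_2g14910 (glutamate-tRNA ligase) and 1.72 for FvH4_2g12870 (RNA helicase 39). It was 1.45 for the pentatricopeptide repeat gene FvH4_2g17180, 1.03 for FvH4_2g13861 (LSM3B) and 13.9 for FvH4_6g08720, which the files do not pair with a name. When the odd ‘Alta’ crown library (42 d, replicate 3) was left out, the values were −6.02, −3.92, 4.33, 1.5, 1.40, 1.37, 1.01 and −0.45 in the same order of genes, and only the last, of FvH4_6g08720, was not called among these 8 (FDR 0.98). No test of the source of these differences was made.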

How the results depend on the processing

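Of the 46 named genes with a called interaction, 11 kept their call in every alternative, 30 kept it without each leaf library in turn, and 0 changed direction. The number of genes called was 1001 (549 higher, 452 lower) in a fit of all 24 libraries, in which 31 of those 46 lost their call, and 5199 (2420 lower) without the crown library that stood apart, a fit chosen after seeing the data. The DESeq2 test called 2160 genes lower. At an FDR of 0.01 there were 1179 genes, and at least 2-fold 1875. Without each leaf library in turn the count was 1980 to 5594 (1274 to 2994 higher, 685 to 2600 lower), highest without ‘NCGR1363’ 42 d replicate 2 and lowest without ‘Alta’ 0 h replicate 2; it was also over 1.5 times lower without ‘NCGR1363’ 42 d replicate 3 (2153), ‘NCGR1363’ 0 h replicate 2 (2162) or 3 (2115), ‘Alta’ 42 d replicate 2 (2244) or ‘Alta’ 0 h replicate 3 (2003). The corresponding ranges were 46 to 133 for interval genes, 5957 to 8381 and 7904 to 10638 for the cold response of ‘NCGR1363’ and of ‘Alta’, 3504 to 7096 and 1411 to 3568 for the genotype difference at 42 d and at 0 h, and 135 to 339 and 76 to 325 for the crown-induced and crown-repressed genes. In fits of their own 6 libraries the genotype difference gave 2828 genes at 42 d and 3426 at 0 h, the reverse of the order with 12 libraries. Crown lists from all 12 crown libraries held 40 induced and 23 repressed genes with a called interaction, and lists at a log2 change of 2 held 47 and 34. The difference between tissues was called in 3035 genes without the odd crown library. Among uncalled genes, FvH4_2g18350 ran from −0.0366 (without ‘NCGR1363’ 42 d replicate 2) to 1.02, FvH4_2g14961 from −0.0184 (without ‘Alta’ 0 h replicate 2) to 0.413, and FvH4_2g17230 from −2.74 to 0.843 (without ‘Alta’ 42 d replicate 1). The cause of these changes was not tested. With a replicate block 3071 genes were called; deviations of same-numbered libraries correlated at −0.472 to 0.569 and others at −0.609 to 0.480, 6 of 12 libraries went best with their own number, and so the numbers were not taken to pair the samples. The block moved no count over all genes or interval genes by over 1.5 times, but among the lists it gave 3 membrane transport, 2 transcription factor, 2 carbohydrate and 1 HMG-CoA reductase genes lower and 1 pentatricopeptide repeat gene higher.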
